A study of Mus musculus with 8 samples.

Results

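The interleukin 6 and STAT3 priming genes of the regenerating liver were followed here in whole livers collected 48 h after partial hepatectomy. They are 10 genes taken by name, Il6ra, Il6st, Osmr, Lifr, Jak1, Stat3, Socs3, Il1r1, Il1rn and Nfkbia. All 10 were among the 19055 gene symbols measured, and all 10 passed the filter on low values. None was chosen by its value in these libraries, although earlier results of the same data were known when the genes were picked. The compared livers were 5 of genotype URI(+/D)Hep and 3 of genotype URI(+/+)Hep. URI(+/D)Hep mice carry a deletion of URI, encoded by Uri1, that a CreERT2 recombinase under serum albumin control makes in hepatocytes, and URI(+/+)Hep mice are their wild-type littermates. The notation +/D sets a + allele beside a D allele. Tamoxifen was given for 1 week in both groups, the mice were aged 8 to 9 weeks at surgery, and buprenorphine and isoflurane were used for the operation. The labels call the cells epithelial, while the RNA came from liver tissue, which also holds immune, endothelial, stellate and bile duct cells. They do not say in so many words that each library is a different animal, so p-values measure the spread between these samples.

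After removal of liver tissue, Kupffer cells release interleukin 6 (IL-6), which starts the passage of hepatocytes out of quiescence. IL-6 binds its receptor IL6RA, the complex recruits gp130, encoded by Il6st, the attached kinase JAK1 phosphorylates STAT3, and STAT3 turns on Socs3, whose product shuts the receptor complex off, along with acute phase genes such as the serum amyloid A (Saa) genes. Oncostatin M and LIF signal through gp130 paired with OSMR or LIFR. IL-1 acts through IL1R1 and NF-kB, is blocked by the receptor antagonist encoded by Il1rn, and raises acute phase genes together with IL-6, while Nfkbia encodes the inhibitor that holds NF-kB in the cytoplasm. The protein orosomucoid, made from the Orm genes, is a further acute phase product of hepatocytes.

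Both arms of this response end at DNA motifs, so the 250 bases before each annotated start were searched on both strands for the STAT motif TTCNNNGAA and for the NF-kB consensus of the kappa B site. Sequences are those of RefSeq on GRCm38.p6, in which all 10 genes were found, with 14 windows because some genes have several starts. The deposited values were made on GRCm39, so these coordinates belong to the reference sequence and not to the measurements. The 3 windows that hold a match are shown on the strand of the gene, with the match in capitals. The Socs3 window is chr11:117969367-117969616, minus strand. The Nfkbia window is chr12:55492648-55492897, minus strand, and its match reads on the opposite strand. The window before the second listed start of Il1r1 is chr1:40266336-40266585, plus strand, with its match also on the opposite strand.
Socs3: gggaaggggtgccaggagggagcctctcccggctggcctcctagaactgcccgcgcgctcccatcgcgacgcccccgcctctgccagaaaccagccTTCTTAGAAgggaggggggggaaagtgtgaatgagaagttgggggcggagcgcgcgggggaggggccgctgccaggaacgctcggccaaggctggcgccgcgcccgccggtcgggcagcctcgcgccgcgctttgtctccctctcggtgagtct
Nfkbia: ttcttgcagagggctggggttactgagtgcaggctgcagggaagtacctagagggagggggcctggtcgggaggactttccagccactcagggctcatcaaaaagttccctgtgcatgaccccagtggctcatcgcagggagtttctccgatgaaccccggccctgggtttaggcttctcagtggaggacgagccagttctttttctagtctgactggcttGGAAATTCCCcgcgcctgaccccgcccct
Il1r1: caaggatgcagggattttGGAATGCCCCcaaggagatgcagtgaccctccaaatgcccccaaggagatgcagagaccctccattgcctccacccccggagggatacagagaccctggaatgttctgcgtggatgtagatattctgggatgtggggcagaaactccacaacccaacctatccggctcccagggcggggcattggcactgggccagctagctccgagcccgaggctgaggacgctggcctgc
The STAT motif lies at positions -154 to -146 from the Socs3 start and occurred in 7.02% of the 32851 windows of this length. The NF-kB consensus lies at -29 to -20 before Nfkbia and at -232 to -223 before the second start of Il1r1, and occurred in 7.25% of the windows. A match is only a run of letters in this window. The other members had neither, which says nothing beyond the window.

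Recovered depth was 4294494 to 4800694 reads in URI(+/D)Hep libraries and 3838674 to 4337966 reads in URI(+/+)Hep libraries. Values are the authors' normalized reads, taken from the 3′ ends of transcripts. Uri1 had 328, 398, 437, 354 and 401 normalized reads in URI(+/D)Hep livers, against 468, 374 and 310.05 in URI(+/+)Hep livers, and a 3′ tag does not check a deletion elsewhere in the gene. The libraries stood apart on the sex-linked genes. Xist had 1217 to 2357 normalized reads in the URI(+/D)Hep libraries, against 9.59, 2.95 and 1298 in URI(+/+)Hep 1, 2 and 3. The sum of Uty, Kdm5d, Ddx3y and Eif2s3y, which lie on the Y chromosome, had 3.54 in URI(+/D)Hep 1 and 786 to 1002 in URI(+/D)Hep 2 to 5, against 1558, 1312 and 569 in URI(+/+)Hep 1, 2 and 3. Reads of both kinds were therefore present in 5 libraries, URI(+/D)Hep 2 to 5 and URI(+/+)Hep 3. The labels give no sex, and whether these libraries hold RNA of a single animal or of several was not tested. A liver in this text means the sample of a single library. URI(+/+)Hep 1 and 2 are the only libraries without appreciable Xist, and the results below are also given without single libraries.

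No member passed the test between the genotypes. Of 13704 genes tested with limma, 0.0146% had an adjusted p under 0.05, and 0 of the 10 members did. At an unadjusted p under 0.05 stood 3 of the 10 members, Il1rn, Osmr and Stat3, against 17.7% of all genes tested. The groups overlapped for all 10 members, against 13.4% of all genes whose ranges did not overlap. The log2 fold change (called the log2 ratio from here on), URI(+/D)Hep over URI(+/+)Hep, was negative for 8 of the 10, with a median of -0.34. Over all genes tested 50.2% were negative and the median was 0.00 (-0.0019). Ratios are on the scale of log2(value + 1), which understates those of low genes.

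**Figure D1:**
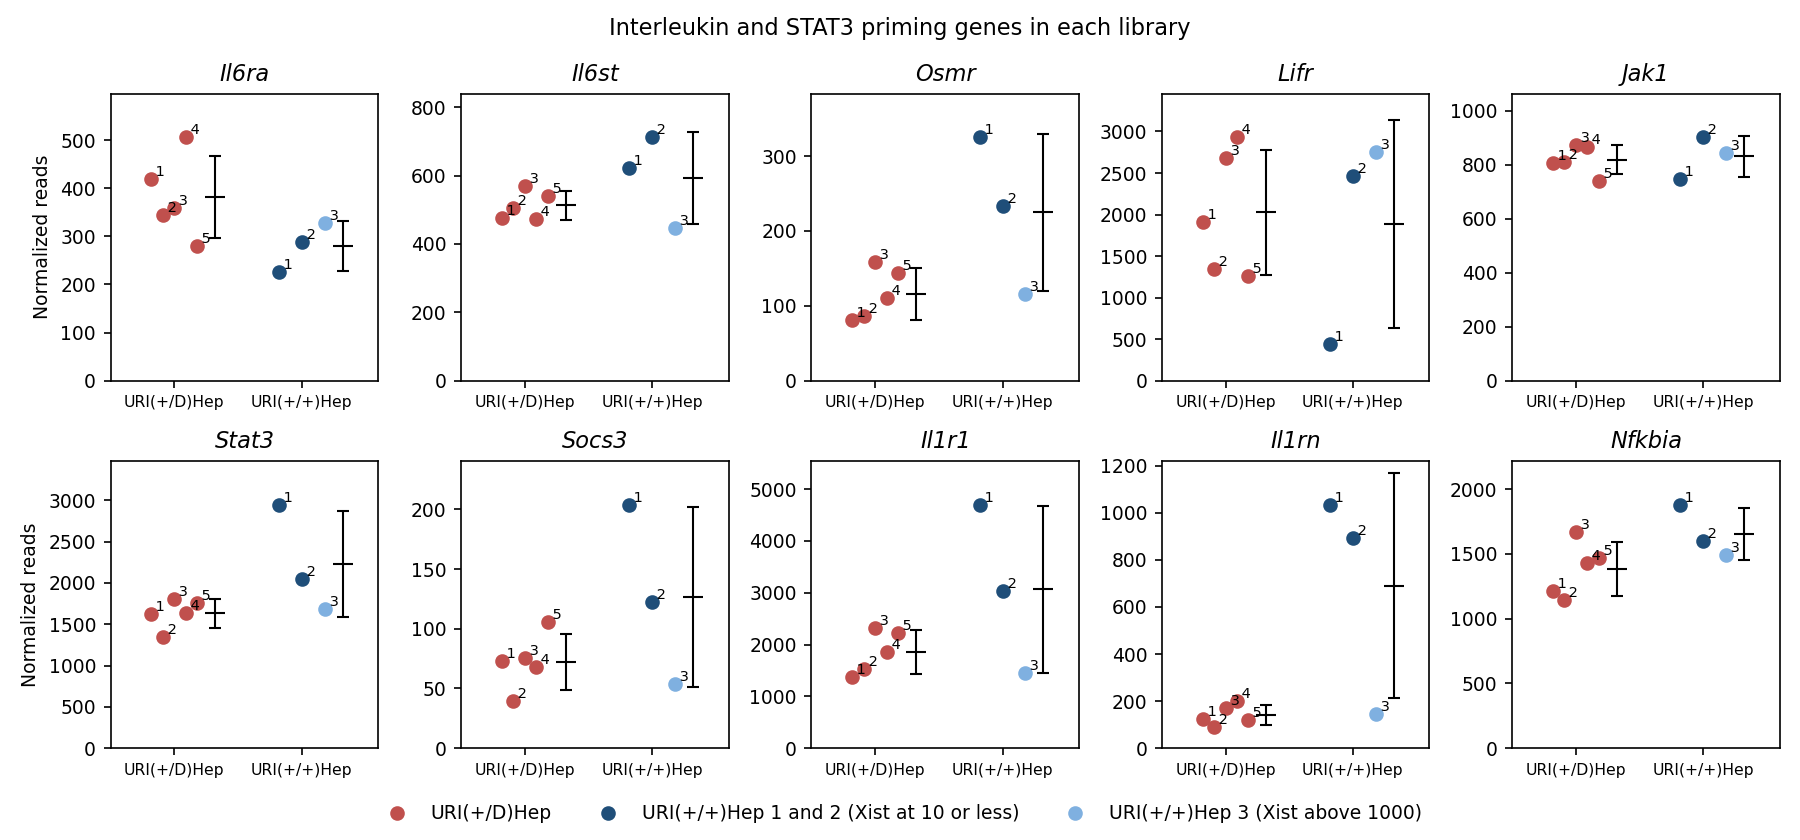
Normalized reads of the 10 genes in each library, on linear axes from 0, with URI(+/D)Hep on the left and URI(+/+)Hep on the right of each panel. Points are libraries, numbered by replicate, and bars show the group mean with its SD. URI(+/+)Hep 1 and 2 lie highest for Il1rn, Osmr, Stat3, Socs3, Il1r1 and Il6st, while URI(+/+)Hep 3 lies among the URI(+/D)Hep libraries for 9 of the 10 genes.

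Il6ra, the ligand-binding receptor subunit for IL-6, had 419.9, 344, 359, 506 and 279 normalized reads in URI(+/D)Hep livers, against 225, 288 and 327 in URI(+/+)Hep livers. It is 1 of the 2 members with a positive difference, and its groups overlapped because URI(+/D)Hep 5 lay below URI(+/+)Hep 2 and 3. The means were 381 ± 85.8 in URI(+/D)Hep livers (SD, n = 5) and 280.1 ± 51.3 in URI(+/+)Hep livers (SD, n = 3), with a limma log2 ratio of 0.43 (SE 0.20, 95% interval -0.02 to 0.88) and an adjusted p of 0.297. Il6st, the signal-transducing subunit shared by the whole cytokine family, had 476, 506, 570.3, 474 and 539 normalized reads in URI(+/D)Hep livers, against 622, 712 and 446 in URI(+/+)Hep livers. URI(+/+)Hep 1 and 2 were the highest libraries and URI(+/+)Hep 3 the lowest, so that the URI(+/D)Hep libraries lay between members of the other group. Its log2 ratio was -0.19 (SE 0.15, limma adjusted p = 0.553).

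Osmr, the receptor subunit for oncostatin M, had 80.4, 86.1, 159, 111 and 144 normalized reads in URI(+/D)Hep livers, against 325, 233 and 116 in URI(+/+)Hep livers. The first and second URI(+/+)Hep libraries were above every other library, and the remaining one lay inside the URI(+/D)Hep range. The means were 116 ± 34.6 in URI(+/D)Hep livers (SD, n = 5) and 225 ± 105 in URI(+/+)Hep livers (SD, n = 3), and the log2 ratio was -0.88 (SE 0.35, 95% interval -1.66 to -0.10, limma unadjusted p = 0.0316, adjusted p = 0.239). Lifr, the receptor subunit for LIF, had 1908, 1349, 2676, 2930.1 and 1266 normalized reads in URI(+/D)Hep livers, against 445, 2459.6 and 2752 in URI(+/+)Hep livers. URI(+/+)Hep 1 stood far below the rest. The log2 ratio of Lifr was 0.40 (SE 0.57, limma adjusted p = 0.752) over all libraries and -0.44 without URI(+/+)Hep 1, so its sign was set by that library. In the RefSeq annotation Osmr and Lifr lie next to each other on chromosome 15, with 0 protein-coding genes between them, and URI(+/+)Hep 1 had the highest value of all libraries for Osmr and the lowest for Lifr.

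Jak1, the kinase attached to gp130, was the steadiest member. It had 807, 812, 874, 865 and 741 normalized reads in URI(+/D)Hep livers, against 748, 902 and 842 in URI(+/+)Hep livers, and its highest library was 1.22 times its lowest. The log2 ratio was -0.02 with a 95% interval of -0.24 to 0.21 (limma adjusted p = 0.947). Stat3, the transcription factor on which the pathway converges, had 1624, 1351, 1802, 1634 and 1752 normalized reads in URI(+/D)Hep livers, against 2944, 2052 and 1689 in URI(+/+)Hep livers. The highest 2 libraries were again URI(+/+)Hep 1 and 2. Stat3 averaged 1632 ± 175 (SD, n = 5) in URI(+/D)Hep livers and 2228 ± 646 (SD, n = 3) in URI(+/+)Hep livers, with a log2 ratio of -0.42 (SE 0.18, 95% interval -0.82 to -0.02, limma unadjusted p = 0.043, adjusted p = 0.268). These are transcript levels, and phosphorylated STAT3 protein was not measured.

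Socs3, the feedback inhibitor whose window holds the STAT motif printed above, had 73.4, 39.8, 75.4, 68.4 and 106 normalized reads in URI(+/D)Hep livers, against 204, 122 and 53.6 in URI(+/+)Hep livers. Its order followed that of Stat3 at the top, with URI(+/+)Hep 1 highest and URI(+/+)Hep 2 next, and the lowest library was URI(+/D)Hep 2 for both genes. The same top order held for Osmr, Il1r1 and Il1rn, whose windows hold no STAT motif. URI(+/D)Hep 2 was also the lowest library for Il1rn and Nfkbia. The Socs3 means were 72.6 ± 23.5 in URI(+/D)Hep livers (SD, n = 5) and 127 ± 75.2 in URI(+/+)Hep livers (SD, n = 3), a log2 ratio of -0.66 with an interval wide enough to include no difference (SE 0.42, 95% interval -1.62 to 0.29, limma adjusted p = 0.444).

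Among the IL-1 and NF-kB genes, Il1rn had the largest difference of the 10 members. This gene of the IL-1 receptor antagonist had 126, 87.96, 170.1, 200.5 and 119.7 normalized reads in URI(+/D)Hep livers, against 1034, 892 and 147 in URI(+/+)Hep livers. URI(+/+)Hep 1 and 2 stood far above all other libraries, which reached at most 200.5, and the highest library was 11.8 times the lowest. Il1rn averaged 141 ± 44.4 (SD, n = 5) in URI(+/D)Hep livers and 691 ± 476 (SD, n = 3) in URI(+/+)Hep livers. Its log2 ratio was -1.92 (SE 0.59, 95% interval -3.24 to -0.60), with a limma unadjusted p of 0.00936 and an adjusted p of 0.157. The call depended on the tool and on 1 library. DESeq2 on the recovered reads called Il1rn with an adjusted p of 0.000984 (log2 ratio -2.29), as it did 4.47% of all genes, and again without URI(+/D)Hep 5 (adjusted p = 0.0046, 2.76% of all genes called), while edgeR gave an adjusted p of 0.121 (log2 ratio -2.30) and called 0.0219% of all genes. DESeq2 gave no adjusted p for 4533 of the 13704 genes, or for 2129 without URI(+/D)Hep 5. Its shares count these genes as not called, so they understate the share among genes that could be called. Without URI(+/+)Hep 3 the limma fit gave a log2 ratio of -2.82 (SE 0.29, adjusted p = 0.014) for Il1rn, which was then the only member among the 0.248% of genes called. In the 5 libraries holding Xist as well as Y-linked reads, where the lone control, URI(+/+)Hep 3, is taken to have the spread of the URI(+/D)Hep livers, the log2 ratio of Il1rn was -0.09 (limma adjusted p = 0.939).

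Il1r1, the signalling receptor for IL-1, had 1371, 1524, 2312, 1846 and 2230.2 normalized reads in URI(+/D)Hep livers, against 4695, 3034 and 1456 in URI(+/+)Hep livers. It showed the same order at the top, and URI(+/+)Hep 3 was the second lowest of the 8 libraries. The means were 1857 ± 416 in URI(+/D)Hep livers (SD, n = 5) and 3062 ± 1619.8 in URI(+/+)Hep livers (SD, n = 3), with a log2 ratio of -0.59 (SE 0.34, 95% interval -1.37 to 0.18, limma adjusted p = 0.394). Its neighbour on chromosome 1, the decoy receptor gene Il1r2, was singled out after its values were seen and had 7.96, 24.1, 32.9, 11.2 and 42.5 normalized reads in URI(+/D)Hep livers, against 177, 129.97 and 5.36 in URI(+/+)Hep livers. Nfkbia, the NF-kB inhibitor, had 1211, 1147, 1666, 1432 and 1469.7 normalized reads in URI(+/D)Hep livers, against 1879, 1596 and 1488 in URI(+/+)Hep livers. URI(+/+)Hep 1 was the highest library and URI(+/D)Hep 3 the next, and the log2 ratio was -0.26 (SE 0.14, 95% interval -0.59 to 0.06, limma adjusted p = 0.372).

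**Figure D2:**
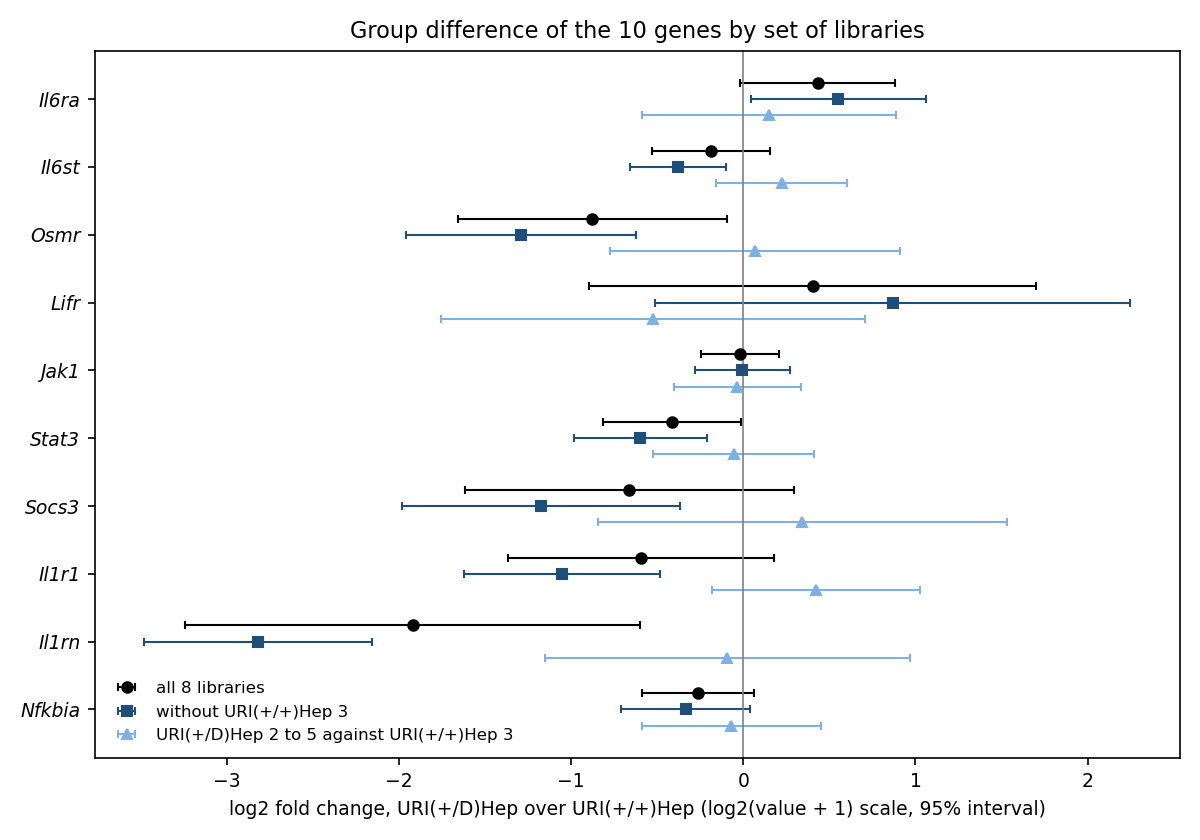
Log2 fold changes of the 10 genes, URI(+/D)Hep over URI(+/+)Hep, with 95% intervals from limma, over all 8 libraries (circles), without URI(+/+)Hep 3 (squares) and for URI(+/D)Hep 2 to 5 against URI(+/+)Hep 3 (triangles). Without URI(+/+)Hep 3 the value of Il1rn is -2.82, and in the 5 libraries holding Xist as well as Y-linked reads it is -0.09.

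The livers of the URI(+/+)Hep group were thus far apart on these genes. URI(+/+)Hep 1 and 2 were both above all 6 other libraries for Il6st, Osmr, Stat3, Socs3, Il1r1 and Il1rn, which are 6 of the 10 members, against 8.22% of all genes tested. URI(+/+)Hep 3 lay inside the URI(+/D)Hep range for 9 of the 10 and below it for Il6st. The members' values depended on which URI(+/+)Hep library was left out. Without URI(+/+)Hep 1, an unadjusted p under 0.05 was reached by 1 of the 10 members, against 15.5% of all genes, and the log2 ratios were -0.55 for Osmr, -0.21 for Il1r1, -0.22 for Socs3, -0.20 for Stat3 and -1.42 for Il1rn. Without URI(+/+)Hep 2 it was again 1 of the 10, against 15.4% of all genes, with Il1rn at -1.52 and Il6st at -0.04. Without URI(+/+)Hep 3 it was 7 of the 10, against 21.1% of all genes. The log2 ratios were then -1.29 for Osmr (limma adjusted p = 0.110), -1.05 for Il1r1 (0.110), -1.18 for Socs3 (0.135) and -0.60 for Stat3 (0.125). With URI(+/+)Hep 3 as the 1 control among the 5 libraries holding Xist as well as Y-linked reads, the log2 ratios were 0.07 for Osmr, 0.42 for Il1r1, 0.34 for Socs3, 0.22 for Il6st and -0.06 for Stat3, with 0 genes called. Genotype and the split by Xist cannot be told apart for the high libraries, since both libraries without appreciable Xist are URI(+/+)Hep.

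Markers of cell types were read in the same libraries. The summed neutrophil markers, 12 of 13 measured, had 323 to 919 normalized reads in URI(+/D)Hep libraries, against 1217, 1196 and 572 in URI(+/+)Hep 1, 2 and 3. The defining markers S100a8 and S100a9 were present in every library. The neutrophil sum and the members Il1rn, Il1r1, Osmr, Stat3, Socs3 and Il6st had their highest 2 libraries in common. Within the list S100a8, S100a9, Csf3r, Cxcr2, Retnlg, Mmp8 and Mmp9 were highest in URI(+/+)Hep 1 and 2. Mpo, Camp and Ltf were instead highest in URI(+/D)Hep 1, 4 and 5, at 5.30, 9.37 and 5.93. Ngp was highest in URI(+/+)Hep 2 and 3, and Ly6g in URI(+/+)Hep 1 and 3. The summed bile duct markers, all 6 measured, had 233 to 1169 in URI(+/D)Hep libraries, against 1659, 1068 and 254 in URI(+/+)Hep 1, 2 and 3. Within that list Sox9 had 108 to 175 in URI(+/D)Hep livers, against 1141, 631 and 121 in URI(+/+)Hep livers, and Spp1 had 90.9 to 144 in URI(+/D)Hep livers, against 458, 377 and 97.6 in URI(+/+)Hep livers. The defining markers Krt19, Epcam and Cftr were instead highest in URI(+/D)Hep 5, at 65.3, 525 and 283, and Krt7 was highest there too. The summed monocyte markers, 6 of 7 measured, had 370.4 to 1089 in URI(+/D)Hep libraries, against 886, 909.8 and 415 in URI(+/+)Hep 1, 2 and 3, with URI(+/D)Hep 5 highest. Of these, Ccr2, Chil3 and F13a1 were highest in URI(+/+)Hep 1 and 2, at 109 and 162, 139 and 140, and 156 and 192. In URI(+/D)Hep livers they reached at most 72.5, 35.2 and 42.6. Plac8 and Ly6c2 were instead highest in URI(+/D)Hep 5, at 909 and 10.9, and Cx3cr1 in URI(+/+)Hep 3, at 105. Kupffer cell markers, all 8 measured, summed to 5350 to 6519 in URI(+/D)Hep libraries and 4988 to 6549.8 in URI(+/+)Hep libraries. Clec4f, Timd4, Vsig4, Cd5l, Adgre1 and Csf1r were lowest in URI(+/+)Hep 1, at 102, 78.0, 138, 1200, 76.8 and 150. Marco was highest there, at 3326, and Cd163 lay between other libraries. Hepatocyte markers, 9 of 10 measured, summed to 46716 to 56475 in URI(+/D)Hep libraries and 47765 to 75945 in URI(+/+)Hep libraries. The highest sum was that of URI(+/+)Hep 1, where Fgb, also listed as an acute phase gene, had 43487. Fgb had 16413 to 25825 in URI(+/D)Hep livers, and 22493 and 15605 in URI(+/+)Hep 2 and 3. Apoa1 and Hnf4a were also highest in URI(+/+)Hep 1, at 9300 and 1332, while Cps1 was lowest there. Alb, Ttr, Ass1, Serpina1e and Cyp2e1 in URI(+/+)Hep 1 lay between other libraries. Of the 9, only Cps1 did not overlap between the groups, against 13.4% of all genes tested. Cps1 had 2709 to 3682 in URI(+/D)Hep livers and 1077 to 1880 in URI(+/+)Hep livers. The groups did not overlap for sinusoidal endothelial markers, all 9 measured, with sums of 2506 to 2722 in URI(+/D)Hep libraries and 2030.4 to 2457 in URI(+/+)Hep libraries, nor for B cell markers, 3 of 5 measured, with 64.8 to 107 in URI(+/D)Hep libraries and 10.8 to 56.1 in URI(+/+)Hep libraries. As single genes, only Stab2 and Tek of the 9 and Ebf1 of the 3 did not overlap, against 13.4% of all genes tested. Stab1 was instead highest in URI(+/+)Hep 1 and 2, at 321 and 297. T and NK cell markers, all 6 measured, had 23.2 to 79.1 in URI(+/D)Hep libraries, against 5.996, 19.7 and 41.8 in URI(+/+)Hep 1, 2 and 3. No measured marker of these lists was at 0 in all libraries. In whole liver, fewer cells of a type and less RNA per cell cannot be told apart, and the part of these cell types in the members' values was not tested. Mki67, a gene of dividing cells, had 469, 333, 268, 586 and 49.5 normalized reads in URI(+/D)Hep livers, against 23.99, 282 and 468 in URI(+/+)Hep livers, so the extremes of Lifr and Osmr in URI(+/+)Hep 1 coincided with the lowest Mki67.

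The acute phase products were compared with the members library by library. The Saa1 to Saa4 sum had 35588, 30617, 41618, 47699.9 and 44042 normalized reads in URI(+/D)Hep livers, against 56077, 58061 and 49698 in URI(+/+)Hep livers. The groups did not overlap, and the log2 difference was -0.47, with an exact permutation p of 0.0536 where the smallest the 56 splits allow is 0.0179. Without URI(+/D)Hep 4 the Saa difference was -0.54 (exact permutation p = 0.0286, the smallest its 35 splits allow). Leaving out any other single library gave p of 0.0571 or 0.0952. Of the Saa sum, Saa1 gave 18269.8 ± 2570.1 (SD, n = 5) in URI(+/D)Hep livers and 25305 ± 1579.8 (SD, n = 3) in URI(+/+)Hep livers, a log2 ratio of -0.48 (SE 0.15, limma adjusted p = 0.161). The log2 ratios of Saa2, Saa3 and Saa4 were -0.47, -0.93 and -0.21 (limma adjusted p = 0.272, 0.253 and 0.681). The Orm1 to Orm3 sum had 11023, 10945, 9365, 11579.8 and 10477 in URI(+/D)Hep livers, against 20033, 14728 and 9836 in URI(+/+)Hep livers. Its high libraries were URI(+/+)Hep 1 and 2, as for 6 of the members, and the log2 difference was -0.42 (exact permutation p = 0.107). Without URI(+/+)Hep 3 the Orm difference was -0.69 (exact permutation p = 0.0476, the smallest its 21 splits allow). It was -0.18 without URI(+/+)Hep 1 (exact permutation p = 0.333). The log2 ratios of Orm1, Orm2 and Orm3 were -0.44, -0.11 and -0.76 (limma adjusted p = 0.325, 0.904 and 0.468). Saa1 with Saa2 and Orm1 with Orm2 and Orm3 are close copies whose reads the counting may have split, so single values are less certain than the sums.

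Of 20 relations of a member with the Saa or the Orm sum over the 8 libraries, 0 passed after Benjamini-Hochberg adjustment over the 20. The groups did not overlap for the Saa sum, so these r values also hold the group difference. Centred within groups, r with Saa was 0.74 for Nfkbia, 0.61 for Osmr, 0.53 for Stat3 and 0.62 for Socs3. The p of permutation within groups was 0.0736, 0.0806, 0.0764 and 0.0542, and the smallest adjusted p over the 20 was 0.269. With the Saa sum, Nfkbia had a Pearson r of 0.83 (exact permutation p = 0.0111, adjusted p = 0.0608) and a Spearman rho of 0.69 (p = 0.0694). Without URI(+/D)Hep 1 and 2, the libraries farthest from the median Saa sum on the log2 scale, the r of Nfkbia was 0.39. It was 0.79 without URI(+/D)Hep 1 alone and 0.71 without URI(+/D)Hep 2 alone, so the fall came with both left out. Osmr had r = 0.80 (exact permutation p = 0.0171, adjusted p = 0.0608) and rho = 0.74 (p = 0.0458), and r = 0.64 without the same libraries. Stat3 had r = 0.76 (exact permutation p = 0.0243, adjusted p = 0.0608) and rho = 0.76 (p = 0.0368), and r = 0.63 without them. Socs3 had r = 0.71 (exact permutation p = 0.0468, adjusted p = 0.0936) and rho = 0.60 (p = 0.132), and r = 0.55 without them. Il1rn fell into separate clusters, URI(+/+)Hep 1 and 2 against the rest, so no r over all libraries is given. Among the 6 libraries with Xist, Il1rn had r = 0.77 with the Saa sum (exact permutation p = 0.0736) and -0.13 with the Orm sum (p = 0.821). With the Saa sum, the corresponding r was 0.78 for Nfkbia, 0.74 for Stat3, 0.61 for Osmr and 0.44 for Socs3, with 0.567 as the smallest adjusted p.

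With the Orm sum, Stat3 had r = 0.83 (exact permutation p = 0.0219, adjusted p = 0.0608) but rho = 0.29 (p = 0.501). Il1r1 had r = 0.81 (exact permutation p = 0.0187, adjusted p = 0.0608), Socs3 r = 0.79 (p = 0.0194, adjusted p = 0.0608) and Osmr r = 0.76 (p = 0.0292, adjusted p = 0.0649), with rho of 0.40, 0.48 and 0.26. Centred within groups, r was 0.73 for Stat3, 0.74 for Il1r1, 0.72 for Socs3 and 0.60 for Osmr. The p of permutation within groups was 0.281, 0.285, 0.224 and 0.346. URI(+/+)Hep 1 and 2 were the libraries farthest from the median Orm sum on the log2 scale. Without them r was -0.54 for Stat3, -0.37 for Il1r1, -0.12 for Socs3 and -0.67 for Osmr, so each of these relations rested on URI(+/+)Hep 1 and 2. Lifr ran the other way, with r = -0.71 with the Orm sum over the 8 libraries (exact permutation p = 0.0624, adjusted p = 0.104) and -0.23 without them. Il6ra had negative r with both sums, -0.44 with Saa and -0.59 with Orm (exact permutation p = 0.278 and 0.139), but 0.04 and 0.56 in the 6 libraries with Xist, which are those without URI(+/+)Hep 1 and 2. Jak1, with little spread of its own, had r of 0.14 and -0.27. The remaining values were 0.69 for Il1r1 with Saa (exact permutation p = 0.0582, adjusted p = 0.104), 0.52 and 0.63 for Il6st with Saa and Orm, -0.09 for Lifr with Saa and 0.53 for Nfkbia with Orm. In the 6 libraries with Xist these were 0.33 for Il1r1, -0.22 and -0.42 for Il6st, 0.62 for Lifr and -0.67 for Nfkbia, so the sign of several rested on URI(+/+)Hep 1 and 2.

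**Figure D3:**
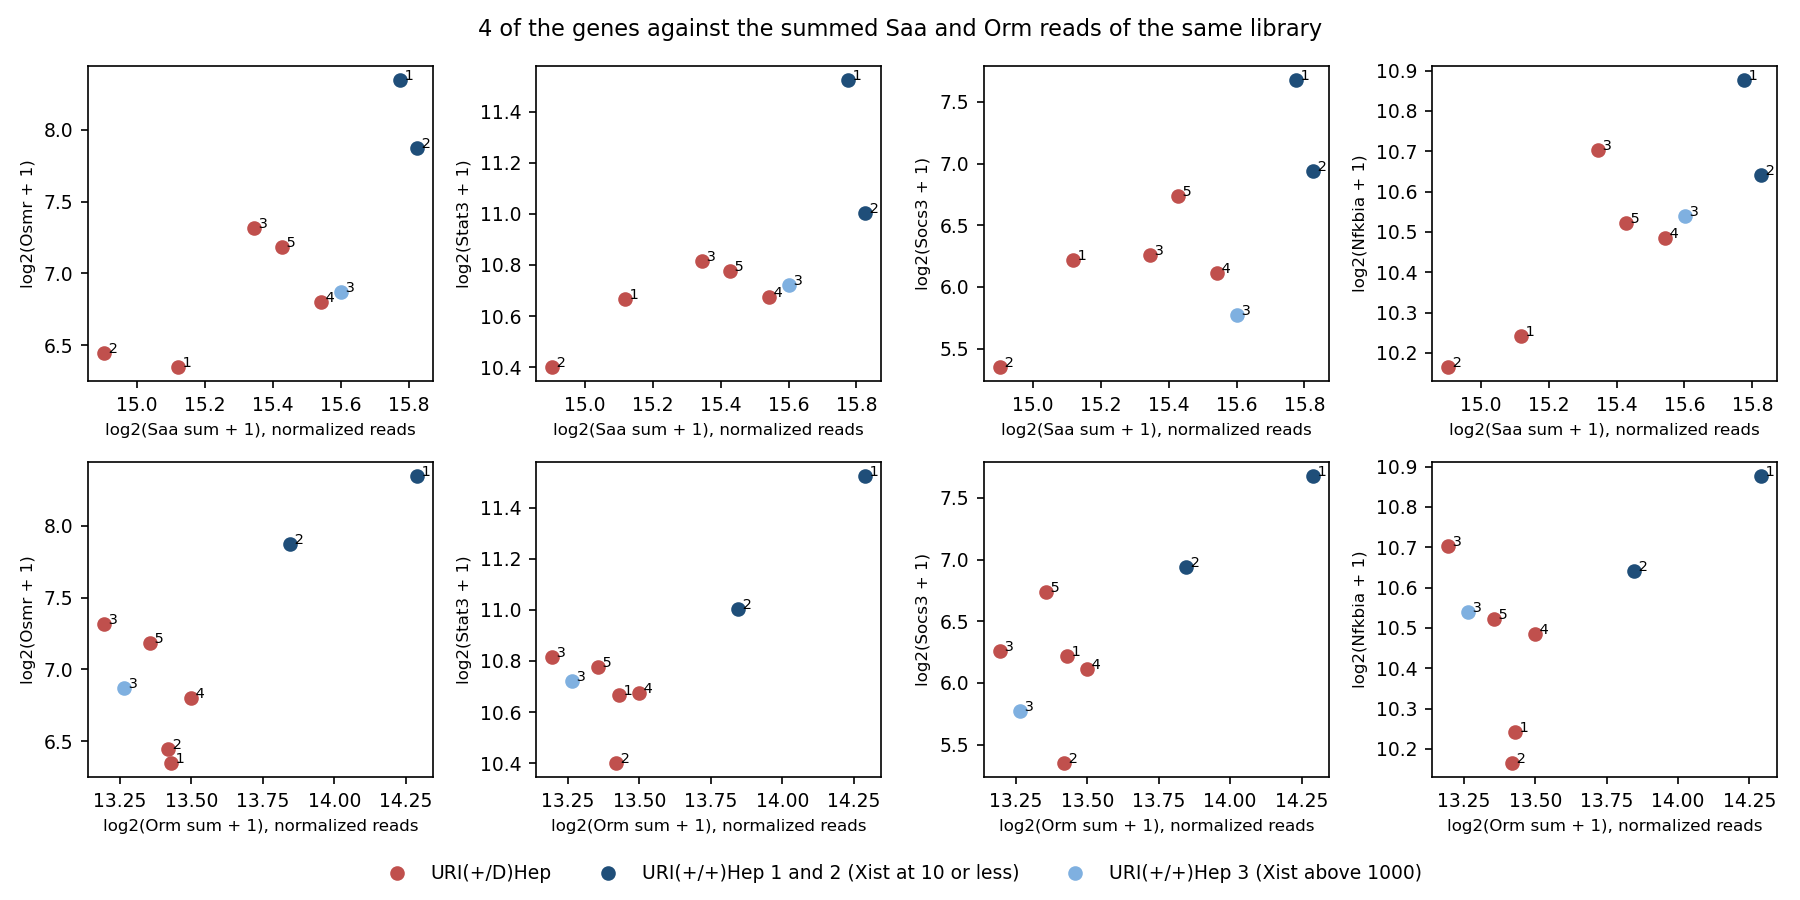
Normalized reads of Osmr, Stat3, Socs3 and Nfkbia against the Saa sum and the Orm sum of the same library, both axes as log2(value + 1), with URI(+/D)Hep before URI(+/+)Hep in the legend. Points are libraries. In the Orm panels URI(+/+)Hep 1 and 2 lie alone, at sums of 20033 and 14728 normalized reads before the log, and the other libraries lie between 9365 and 11579.8.

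The rest of the pathway was read from lists chosen with earlier results of these data known. In none of them was a gene called in either direction by limma, where 0.0146% of all genes were. Of the ligands, Il6 lay near the limit of detection, with 5.304, 3.704, 3.87, 2.81 and 4.95 normalized reads in URI(+/D)Hep livers, against 2.399, 5.91 and 1.07 in URI(+/+)Hep livers, where 3 reads correspond to 2.65 to 3.60. Lif and Osm were also below the filter. Il11 had 3.75 to 15.8 in URI(+/D)Hep livers and 3.22 to 13.8 in URI(+/+)Hep livers, and Ctf1 had 5.799 to 11.5 in URI(+/D)Hep livers and 3.94 to 13.2 in URI(+/+)Hep livers. The 5 receptor genes tested had a median log2 ratio of -0.19, and Il11ra1, the IL-11 receptor, averaged 608 ± 81.2 (SD, n = 5) in URI(+/D)Hep livers and 827 ± 132 (SD, n = 3) in URI(+/+)Hep livers (limma log2 ratio -0.44, adjusted p = 0.178). The groups did not overlap for Il11ra1, 1 of the 5, against 13.4% of all genes. The 10 JAK and STAT genes had a median of -0.08, and Stat2, which acts in interferon signalling, had a log2 ratio of -0.15 (adjusted p = 0.445). The 15 genes of JAK-STAT feedback had a median of 0.06. In that list Socs1, a second inhibitor of JAK kinases, averaged 18.3 ± 7.17 (SD, n = 5) in URI(+/D)Hep livers and 43.5 ± 17.7 (SD, n = 3) in URI(+/+)Hep livers (limma log2 ratio -1.23, adjusted p = 0.215), and Socs4 had a log2 ratio of 0.47 (adjusted p = 0.24).

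Il1a, an IL-1 ligand, had 24.7, 22.2, 17.4, 12.2 and 14.8 normalized reads in URI(+/D)Hep livers, against 7.196, 7.88 and 5.36 in URI(+/+)Hep livers, which are 13 to 28 recovered reads in URI(+/D)Hep livers and 5 to 8 in URI(+/+)Hep livers. Here URI(+/+)Hep 3 was the lowest library and stood with URI(+/+)Hep 1 and 2. Il1a passed the filter of at least 10 in at least 3 libraries only through the URI(+/D)Hep group, where it is high, so its difference is given as a description. The 4 IL-1 and TNF ligands tested had a median log2 ratio of 0.20, and 0.13 without Il1a, and Il33, the alarmin, had a log2 ratio of -0.41 (limma adjusted p = 0.427).

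The 9 IL-1 and TNF receptors and decoys had a median log2 ratio of -0.22, and -0.31 without Il18r1, a gene that passed the filter through URI(+/D)Hep alone, and Tnfrsf1a, the main TNF receptor of hepatocytes, averaged 478 ± 38.4 (SD, n = 5) in URI(+/D)Hep livers and 633 ± 102 (SD, n = 3) in URI(+/+)Hep livers (-0.40, limma adjusted p = 0.161). The 10 adaptors of IL-1 signalling had a median of -0.14, with Irak1, a kinase of the receptor complex, at 324 ± 24.5 (SD, n = 5) in URI(+/D)Hep livers and 422 ± 41.5 (SD, n = 3) in URI(+/+)Hep livers (-0.38, limma adjusted p = 0.143). Tollip, an adaptor that dampens the signal, had a log2 ratio of -0.43 (limma adjusted p = 0.207). Of the 8 NF-kB subunits and kinases, with a median of -0.18, Rela had -0.27 (limma adjusted p = 0.197) and Rel 0.56 (0.172). The groups did not overlap for Tnfrsf1a, 1 of the 9 receptors and decoys, for Irak1 and Tollip, 2 of the 10 adaptors, and for Rela and Rel, 2 of the 8 subunits and kinases, against 13.4% of all genes. All 8 genes of NF-kB feedback tested were negative, with a median of -0.16, and Nfkbib, a second inhibitor of NF-kB, had -0.55 (limma adjusted p = 0.307).

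Of 9 STAT3-linked transcription factors and kinases 7 were negative, with a median of -0.45. Cebpb, a factor that cooperates with STAT3 at acute phase genes, averaged 460.3 ± 51.01 (SD, n = 5) in URI(+/D)Hep livers and 649.996 ± 176 (SD, n = 3) in URI(+/+)Hep livers (-0.47, limma adjusted p = 0.199). Pim3, a survival kinase, had a log2 ratio of -0.77 (limma adjusted p = 0.316). Outside the Saa and Orm genes, 20 of 22 acute phase genes were negative, against 50.2% of all genes, with a median of -0.57. Of the 22, 11 had an unadjusted p under 0.05, against 17.7% of all genes, and 0 were called, against 0.0146%. Both URI(+/+)Hep 1 and 2 exceeded all other libraries for Apcs, Hp, Hpx, Fga, Itih3, Itih4, Lcn2, Cp, Lrg1, Mt1, Mt2 and Cd14. Over all genes tested that share was 8.22%. For these genes URI(+/+)Hep 3 lay inside the URI(+/D)Hep range, except for Apcs, Hp and Itih4, where it lay above. The groups did not overlap for 5 of the 22, against 13.4% of all genes. Among the 22, Apcs, serum amyloid P, had -1.11 (limma adjusted p = 0.108) and Lbp, the lipopolysaccharide-binding protein, -0.48 (limma adjusted p = 0.115). DESeq2 on the recovered reads of all libraries called Apcs, Lbp, Saa1 and Irak1 (adjusted p = 0.000505, 0.00611, 0.0270 and 0.0444), as it did 4.47% of all genes. Without URI(+/D)Hep 5 it called Apcs and Lbp but not Saa1 or Irak1, and 2.76% of all genes. The medians of the Saa, Orm and other acute phase genes and of the STAT3-linked factors and kinases lay between -0.57 and -0.44. Those of the other lists lay between -0.22 and 0.20, or between -0.31 and 0.13 without Il18r1 and Il1a, which passed the filter through URI(+/D)Hep alone. The difference between these lists was not tested.

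**Figure D4:**
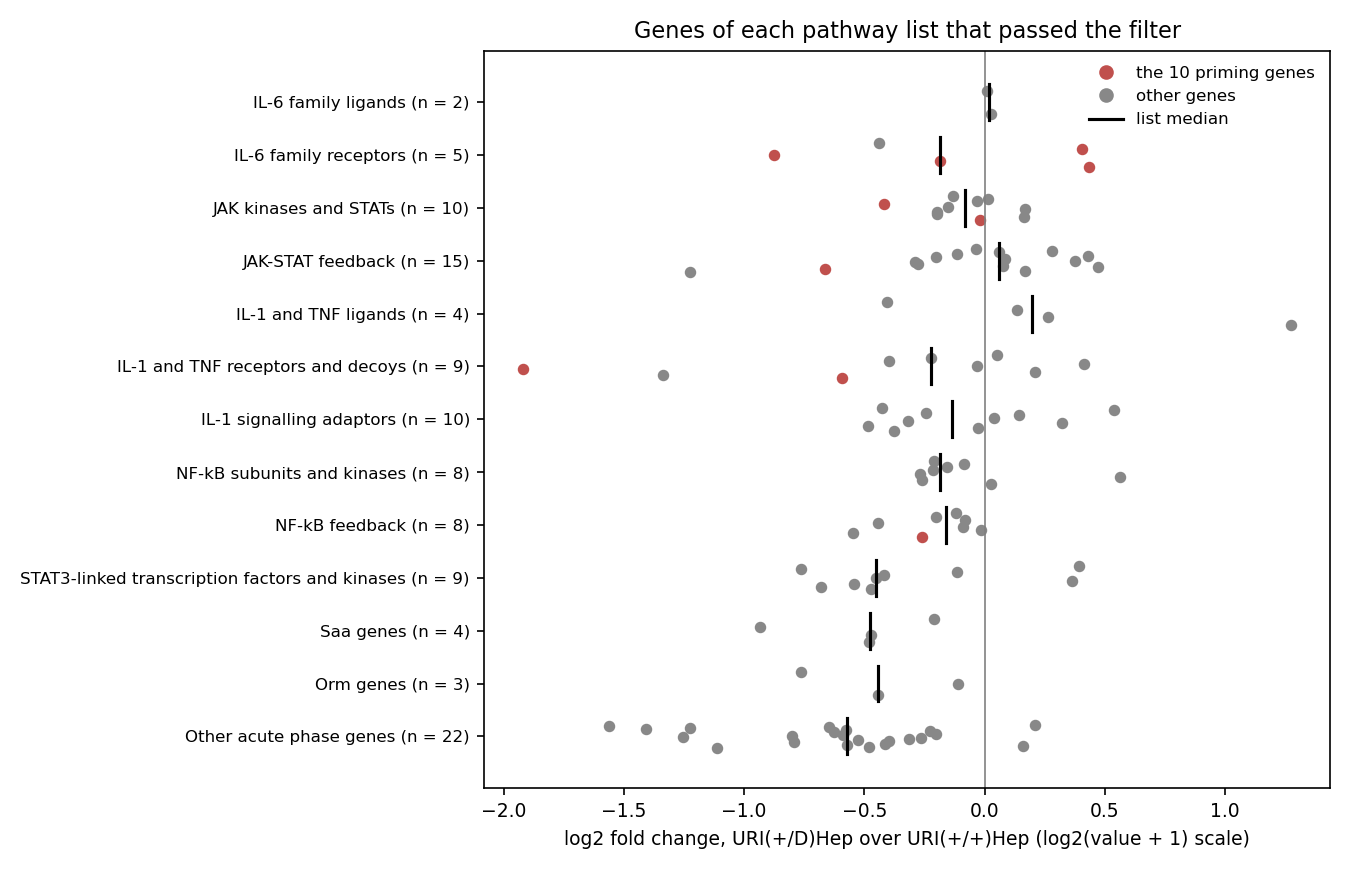
Log2 fold changes, URI(+/D)Hep over URI(+/+)Hep, of the genes of each pathway list. Points are genes that passed the filter, in red for the 10 priming genes, and bars the list medians, from -0.57 for the other acute phase genes to 0.20 for the IL-1 and TNF ligands (0.13 without Il1a), with the line at 0 close to the median of all genes.

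The genes whose levels ran most alike with each member over the 8 libraries were found by Pearson r of log2 values among 9615 genes, as a description with no test. They were Rab31 (r = 0.988) and Alpk1 (0.983) for Osmr, Snx10 (0.986) and Runx1 (0.984) for Il1r1, Marchf3 (0.970) and Arhgef2 (0.954) for Il1rn, and Garem1 (0.980) and P2ry2 (0.974) for Stat3. For Socs3 they were Rps3a2 (0.978) and Shroom1 (0.959), and for Il6st Gm17276 (0.971) and Alox5ap (0.966). These 6 members have URI(+/+)Hep 1 and 2 as their highest libraries. Nfkbia ran with Junb (0.967), Lifr with Ulbp1 (0.994) and Upp2 (0.985), Il6ra with Isoc1 and Gucy1a1 (both 0.976), and Jak1 with Flt4 (0.960) and Fam171a2 (0.940).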

How the data were processed

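Total RNA of 8 liver samples was made into 3′ tag libraries with oligo-dT priming, strand-specific and with a molecular identifier of 6 nt, per the labels' protocols. Per the submitters' processing notes, bcl2fastq, featureCounts and DESeq2 were used on GRCm39. The aligner, and how the identifiers were used, are not given in the sources at hand, so values may count reads or molecules. The authors deposited normalized signal, read counts divided by a size factor. Dividing by each library's smallest value above 0 gave whole numbers for 100% of values (tolerance 1e-06), though URI(+/D)Hep 5, with a step close to 1, is less certain. The main test was limma 3.58.1 in R 4.3.3 with a trend, on log2(value + 1), for genes with at least 10 in at least 3 libraries, with Benjamini-Hochberg adjustment over 13704 genes and a threshold of 0.05. It was tested on simulated data. On the recovered reads edgeR 4.0.16 called 3 genes and DESeq2 1.42.0 called 612. Sums and relations had two-sided exact permutation tests over libraries. The genes and lists were chosen with earlier results of these data known. Named list genes were called ones or otherwise the 2 with the smallest p, and similar genes the 2 with the highest r among genes averaging at least 50. Il1r2, Mki67 and the sex-linked genes were picked with their values already known. Genes of the lists without a value, such as Clcf1, Cntf and Myd88, were not analysed here. Other fits changed the pseudocount, filter, scaling, trend, weights, block, covariate or libraries, and those on 5, 6 or 7 libraries were chosen after seeing the data. The second gene most like Nfkbia is not reported here.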

Additional observations from a re-analysis of the deposited data

Results flagged for a closer look

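Of 35 values in the URI(+/D)Hep group checked for a library far from the others, 2 were found, and chance alone gives about 1 in 20. Cebpb had 549 normalized reads in URI(+/D)Hep 3, with 425 to 453 in the other URI(+/D)Hep livers, and the gap to its nearest neighbour was 0.772 of the group's range. Orm1 had 8537 in URI(+/D)Hep 3, with 9913 to 10249 in the others, a gap of 0.804 of the range. The same library was thus high for Cebpb and low for Orm1 within its group.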

How the results depend on the processing

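Of 1001 values under other settings, 940 were labelled the same. For effects and relations that means the same direction and side of the threshold, and for counts an equal or close count. None of these effects or relations passed in the main analysis, so the same side meant not passing. The 2 genes called with limma became 4 with a mean of at least 50 or with array quality weights, 1 without URI(+/+)Hep 1 and URI(+/D)Hep 5, 0 with quantile normalization, no trend, the Y-linked covariate, the 5 libraries or edgeR on 7 libraries, and 612 and 378 with DESeq2 on 8 and 7 libraries. Leaving out single libraries gave 0 to 34 genes, the 34 without URI(+/+)Hep 3, and 0 to 1 members. DESeq2 called 1 member in both runs, Il1rn at -2.29 and -2.24, and 4.47% and 2.76% of all genes. Without single libraries Il1rn ranged from -2.82 to -1.42. Replicate numbers did not pair the livers (correlations of deviations -0.40, -0.04 and -0.27). With the replicate block, 0 genes were called, Jak1 was at 0.0035, the Saa sum at -0.61 and the Orm sum at -0.45 (both exact permutation p = 0.25, the smallest the 8 arrangements allow), and URI(+/D)Hep 4 and 5 took no part. In the 5 libraries Il6st was 0.22, Socs3 0.34, Osmr 0.068, Il1r1 0.42, Lifr -0.52, Il33 0.12, Orm1 0.12 and Orm3 0.44. Lifr was -0.22 with array weights and -0.30 without URI(+/+)Hep 1 and URI(+/D)Hep 5, where Orm3 was 0.072, and -0.44 to 0.87 over single omissions. Jak1 was 0.0092 with quantile normalization, 0.0095 with edgeR and 0.017 with DESeq2 on 7 libraries, and -0.091 to 0.044 over single omissions. Orm2 was 0.16 and 0.17 with edgeR and DESeq2 on 7 libraries. Over single omissions Orm2 ranged from -0.32 to 0.13 and Orm3 from -1.36 to 0.00014. The Saa sum was -0.52 as a mean of log2 values (exact permutation p = 0.0357) and -0.54 to -0.38 over single omissions, and the Orm sum -0.69 to -0.18. In the 6 libraries with Xist, r with the Orm sum was -0.54 for Stat3, -0.12 for Socs3, -0.67 for Osmr and -0.37 for Il1r1. The causes were not tested. With 3 control livers that differ among themselves, intervals are wide, and the low ligand genes are limited by depth.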
